A study of Homo sapiens with 24 samples.

Results

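KM-H2 and L-428 are Hodgkin lymphoma (HL) cell lines that the study classed as resistant to cell death induced by AEZS-136, a compound that blocks both PI3K and ERK. The transcriptional response of one line was set directly against that of the other, as the log2 fold change in KM-H2 minus the log2 fold change in L-428. Cells of each line were exposed for 24 hours to 10 μM AEZS-136 or to vehicle (DMSO), which gave 4 groups of 3 arrays, control and AEZS-136-treated KM-H2 and control and AEZS-136-treated L-428. These are 12 of the 24 Illumina arrays of the series, whose other arrays hold L-540 and SUP-HD1, classed as sensitive. Of 47323 probes, 17530 were members, because their detection value exceeded 0.99 on at least 3 of the 12 arrays. A further 1223 probes were detected on exactly 2 arrays and lie just outside, 954 were detected on exactly 3 and lie just inside, and 10849 were detected on all 12. A gene symbol was paired with 13618 of the members through the platform annotation, and the others are named by their Illumina identifier. The study describes its array values as coming from independent experiments, while the labels number the replicates without naming separate cultures, so p-values measure the spread between these arrays, which may be partly technical.

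PI3K and ERK signalling carry growth factor and cytokine signals to protein synthesis, nutrient uptake and cell division. PI3K acts through AKT, which holds the FOXO transcription factors out of the nucleus, and ERK drives immediate early genes together with the feedback regulators that limit it. ATF4, the central transcription factor of the integrated stress response, is translated when initiation at other mRNAs is slowed, and it switches on amino acid synthesis and transport. Reed-Sternberg cells, the malignant cells of HL, derive from B cells that have shut down much of the B cell program, and they rely on NF-kB and cytokine signalling.

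Mean signals on the 12 arrays were between 255.6 and 352.4, with the lowest on AEZS-136-treated L-428 replicate 3, and 29.6% to 33.1% of all probes were detected. Arrays of a group correlated at 0.99 to 0.995 across members. Of 9 HL marker genes with a probe, 6 were detected on all 6 arrays of KM-H2 and 7 on all 6 of L-428, among them FSCN1, IRF4 and TRAF1. The probes of TNFRSF8, which encodes CD30, and of CCL22 were not detected on any of the 12 arrays. Of 11 B lineage marker genes with a probe, 3 were detected on all arrays of KM-H2 and 3 on all of L-428, and PAX5 was detected on none in either line. In KM-H2, CD3D, CD4 and ZAP70 were each detected on 6 of 6 arrays, and so was CD14, whereas CD3E, CD2, CD5 and CD7 were not detected in either line. Of marker genes of other cell types with a probe, KM-H2 had 4 of 13 T and NK, 4 of 7 monocyte and 2 of 6 fibroblast genes detected on all 6 arrays, and L-428 had 1, 2 and 0. CD3D and CD14 fell by 0.87 and 0.70 on the log2 scale in KM-H2 only, and the part of such transcripts in the results was not tested.

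The responses of the lines differed at 1602 probes, 9.14% of the members, at a Benjamini-Hochberg adjusted p under 0.05 in limma with a log2 difference of 0.4 or more in size. KM-H2 had the more positive response at 838 of them (4.78%) and L-428 at 764 (4.36%). When arrays were scaled to a common median and not quantile-normalized, 1140 were called, of which 770 were more positive in KM-H2, a share of 67.5% against 52.3%. AEZS-136 by itself changed 1509 probes in KM-H2 (8.61%), of which 859 were higher (4.9%) and 650 lower (3.71%). In L-428 it changed 2588 (14.8%), of which 1290 were higher (7.36%) and 1298 lower (7.4%), at the same thresholds. The median standard error was 0.0867 for a log2 fold change within a line and 0.123 for a difference of responses. The treated and control arrays of a probe did not overlap at 34.2% of the members in KM-H2 and at 40.3% in L-428.

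The 1602 probes were sorted by the line in which the response itself was called. L-428 alone responded at 822 probes, 356 higher and 466 lower. KM-H2 alone responded at 351 probes, 163 higher and 188 lower. With median scaling these sets split as 189 higher of 579 in L-428 (32.6%, against 43.3%) and 223 higher of 340 in KM-H2 (65.6%, against 46.4%), so that the direction of the split for KM-H2 depends on the scaling. At 72 probes both lines changed in the same direction by a different amount. Among these, 40 rose more in L-428, 21 rose more in KM-H2, 10 fell more in L-428 and 1 fell more in KM-H2. At 16 probes the lines moved in opposite directions, and at the other 341 the difference was called while the response in either line was not. All 341 had fitted log2 fold changes of opposite sign in the lines, which follows almost entirely from how this set is defined. With equal signs, the larger change would be at least the size of the difference and have a smaller standard error. It would then nearly always be called itself, so the signs are no separate evidence of opposite responses at these probes.

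**Figure D1:**
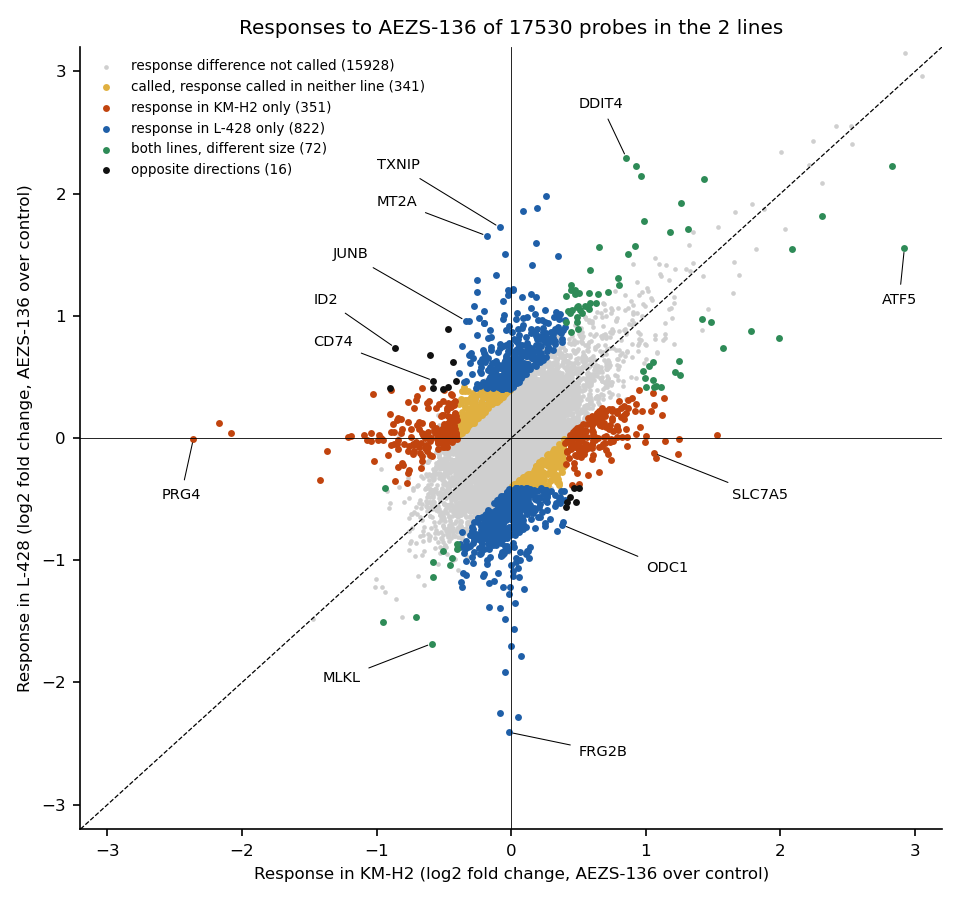
Log2 fold change after AEZS-136 in KM-H2 (horizontal) and in L-428 (vertical) for 17530 probes, 1 point per probe, coloured by the kind of response. The dashed line marks equal responses. The 351 probes that responded in KM-H2 only lie along the horizontal axis, the 822 of L-428 only along the vertical axis, and the 16 with opposite responses in the upper left and lower right.

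The size of a response confined to 1 line had similar medians in the sets. Both sets had to pass the same minimum of 0.4, which holds the medians near each other. The median absolute log2 fold change in the responding line was 0.602 over the 351 probes of KM-H2 and 0.625 over the 822 of L-428, and it reached at least 1 at 25 and 65 of them. The difference of responses itself was at least 1 at 27 probes of KM-H2 only and 66 of L-428 only, against 106 of all members. In the line that was not called, the 95% interval of the log2 fold change lay inside -0.4 to 0.4 at 284 of the 351 probes and at 630 of the 822. Of these, 171 and 492 were detected on at least 1 array of that line. The others gave no detected signal there, so their narrow intervals describe background and exclude no response. Where the interval reached beyond these limits, a response of the minimum size in the other line was not excluded either. An adjusted p under 0.05 in the other line, with a change below the minimum of 0.4, occurred at 33 of the 351 and 85 of the 822.

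Control levels of these probes were often unequal in the lines. Over the 188 probes that fell in KM-H2 only, the median control level was 8.82 in KM-H2 against 7.09 in L-428 on the log2 scale, and 77 of them (41.0%) were not detected on any of the 6 arrays of L-428. Among all members, 7.43% were not detected on any L-428 array and 6.66% on any KM-H2 array. The 163 probes that rose in KM-H2 only had medians of 8.31 in KM-H2 against 7.76 in L-428, and 37 (22.7%) were not detected in L-428. For the 466 probes that fell in L-428 only, the median control level was 9.04 in L-428 and 8.40 in KM-H2, and 88 (18.9%) were not detected in KM-H2. The 356 that rose in L-428 only had medians of 8.17 in L-428 and 7.79 in KM-H2, and 52 (14.6%) were not detected in KM-H2. Where a line gave no detected signal in either group, its response was not measured, and the probe is described here as responding in 1 line on the fitted values. The controls that set these levels also enter the fold changes, so levels are given side by side and no relation between them and the responses was tested.

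**Figure D2:**
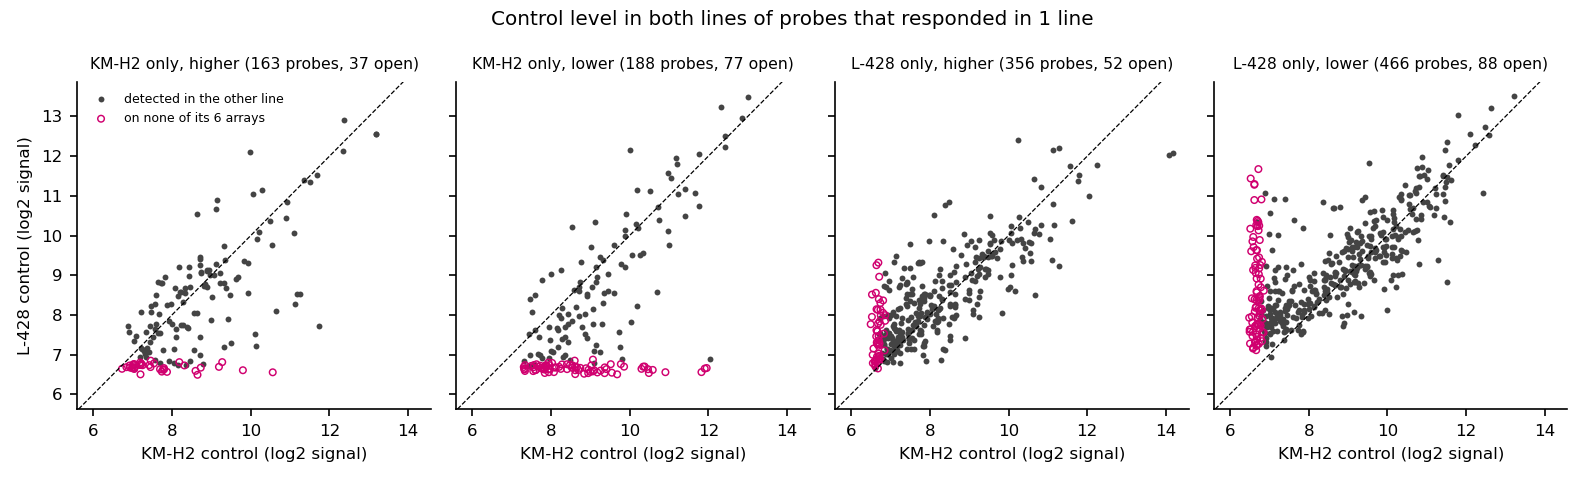
Mean log2 signal of the 3 control arrays in KM-H2 (horizontal) and L-428 (vertical) for probes that responded in 1 line, in 4 panels by line and direction. Open circles are probes detected on none of the 6 arrays of the other line (37, 77, 52 and 88), and the dashed line marks equal levels.

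The largest fitted change called in KM-H2 only was in PRG4, which encodes lubricin, a secreted glycoprotein of joint surfaces. In KM-H2 its log2 signal was 10.41, 10.44 and 10.30 on the control arrays and 7.72, 8.02 and 8.33 on the treated arrays. The groups were separated by almost 2 log2 units, while L-428 gave 6.64, 6.70 and 6.75 and then 6.81, 6.66 and 6.61, none of them detected. PRG4 fell by 2.36 (SE 0.11) in KM-H2, and the difference of responses was -2.36 (SE 0.16, adjusted p = 2e-07). That difference restates the fall in KM-H2 against background, because the response of L-428 was not measured. A second PRG4 probe gave log2 fold changes of -2.08 and 0.04. The next probe in order, ILMN_1780349, is paired with TPR, a nuclear pore protein, whose gene adjoins PRG4 on chromosome 1. Its signal was 11.93, 11.83 and 11.96 and after treatment 9.73, 9.78 and 9.72 in KM-H2, and it was not detected in L-428. The other TPR probe, detected on all arrays, gave -0.16 and 0.31, so the fall of ILMN_1780349 was not shared by the gene's other probe.

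Further probes that fell in KM-H2 only were those of NUDT1, IGLL1, HLA-DRB3 and an unnamed transcript, ILMN_1800220. NUDT1, which clears oxidized nucleotides, fell by 1.03 (SE 0.14) in KM-H2, and its log2 fold change in L-428 was 0.36 (SE 0.14). Its treated KM-H2 arrays read 9.14, 9.01 and 8.42, of which replicate 3 was the lowest. Replicate 3 was also the lowest of its L-428 controls, at 9.81. A second NUDT1 probe gave a smaller difference, -0.58 (SE 0.17). IGLL1, a component of the surrogate light chain of B cell precursors, fell by 1.21 (SE 0.12) in KM-H2 and was not detected in L-428. ILMN_1800220 was detected in both lines, fell by 1.37 (SE 0.08) in KM-H2 and had a log2 fold change of -0.11 (SE 0.08) in L-428.

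Among the probes that rose in KM-H2 only, LRRC49, linked to tubulin polyglutamylation, had the largest difference, 1.50 (SE 0.10). Its signal was 7.75, 7.78 and 7.69 on the KM-H2 controls and 9.33, 9.13 and 9.34 on the treated arrays, without overlap. LRRC49 was not detected in L-428, so the difference sets this rise against background there. The fetal gamma-globin genes HBG2 and HBG1 rose by 1.25 (SE 0.09) and 1.15 (SE 0.08) in KM-H2 and were not detected in L-428. Their sequences are nearly identical, so the probes cannot be taken as separate genes. YJU2, a splicing factor, was detected in both lines, rose by 1.24 (SE 0.12) in KM-H2 and had a log2 fold change of -0.13 (SE 0.12) in L-428. A second YJU2 probe rose by 0.55 in KM-H2 alone. ILMN_3263451, with no gene given, rose by 1.07 (SE 0.12) in KM-H2 and was not detected in L-428.

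In L-428 the largest difference of this kind was at FRG2B, followed by the unnamed probe ILMN_1724555 and by FRG2. FRG2B and FRG2 belong to a gene family with near-identical copies on several chromosomes. FRG2B read 9.38, 9.51 and 9.998 on the L-428 controls and 7.13, 7.20 and 7.34 on the treated arrays. FRG2 read 9.26, 9.29 and 9.70 and then 7.10, 7.06 and 7.33, so that both probes lost most of their signal. They fell by 2.41 (SE 0.12) and 2.25 (SE 0.11), neither was detected on a KM-H2 array, and which copy they report is uncertain. Another FRG2B probe, detected on 3 arrays, had log2 fold changes of -0.08 and -0.41. CYP4Z1, a fatty acid hydroxylase of the cytochrome P450 family, fell by 1.79 (SE 0.08) in L-428, and its other probes gave between -1.70 and -0.32. AMPH, which encodes the membrane-bending protein amphiphysin, fell by 1.48 (SE 0.09). ILMN_1724555 and the unnamed ILMN_1702829 fell by 2.28 (SE 0.07) and 1.92 (SE 0.11). None of these was detected in KM-H2.

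Among the probes that rose in L-428 only, the 6 with the largest differences, taking 1 probe a gene, were those of MT2A, TXNIP, CMAHP, TSC22D3 and CAVIN3 and the unnamed ILMN_3294741. MT2A, a metallothionein that binds zinc and copper, read 9.92, 9.89 and 9.003 on the L-428 controls and 11.32, 11.32 and 11.14 on the treated arrays. In KM-H2 it read 9.29, 9.60 and 9.50 and then 9.66, 9.46 and 8.74. The groups were apart in L-428 and overlapped in KM-H2, and replicate 3 was low among the L-428 controls and among the treated KM-H2 arrays. MT2A rose by 1.65 (SE 0.22), and the difference of responses was -1.84 (SE 0.31, adjusted p = 0.0012), ranging from -2.02 to -1.54 when each array was left out, the smallest without L-428 control replicate 3.

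TXNIP, which binds thioredoxin and restrains glucose uptake, rose by 1.73 (SE 0.10) in L-428, from 8.94, 8.96 and 8.98 to 10.54, 10.52 and 10.999, and was not detected in KM-H2. TSC22D3, the glucocorticoid-induced leucine zipper, rose by 1.98 (SE 0.10) in L-428 against 0.26 (SE 0.10) in KM-H2, and both of its other probes were also called in L-428 only. CMAHP, a human pseudogene of sialic acid hydroxylation, rose by 1.86 (SE 0.08) and by 1.60 (SE 0.11) on a second probe. CAVIN3, a caveola coat protein, rose by 1.29 (SE 0.12) in L-428. Its control level was higher in KM-H2, at 10.00, 10.23 and 10.28, than in L-428, at 8.87, 8.65 and 8.29. ILMN_3294741, unnamed, rose by 1.51 (SE 0.08) in L-428 and was not detected in KM-H2.

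**Figure D3:**
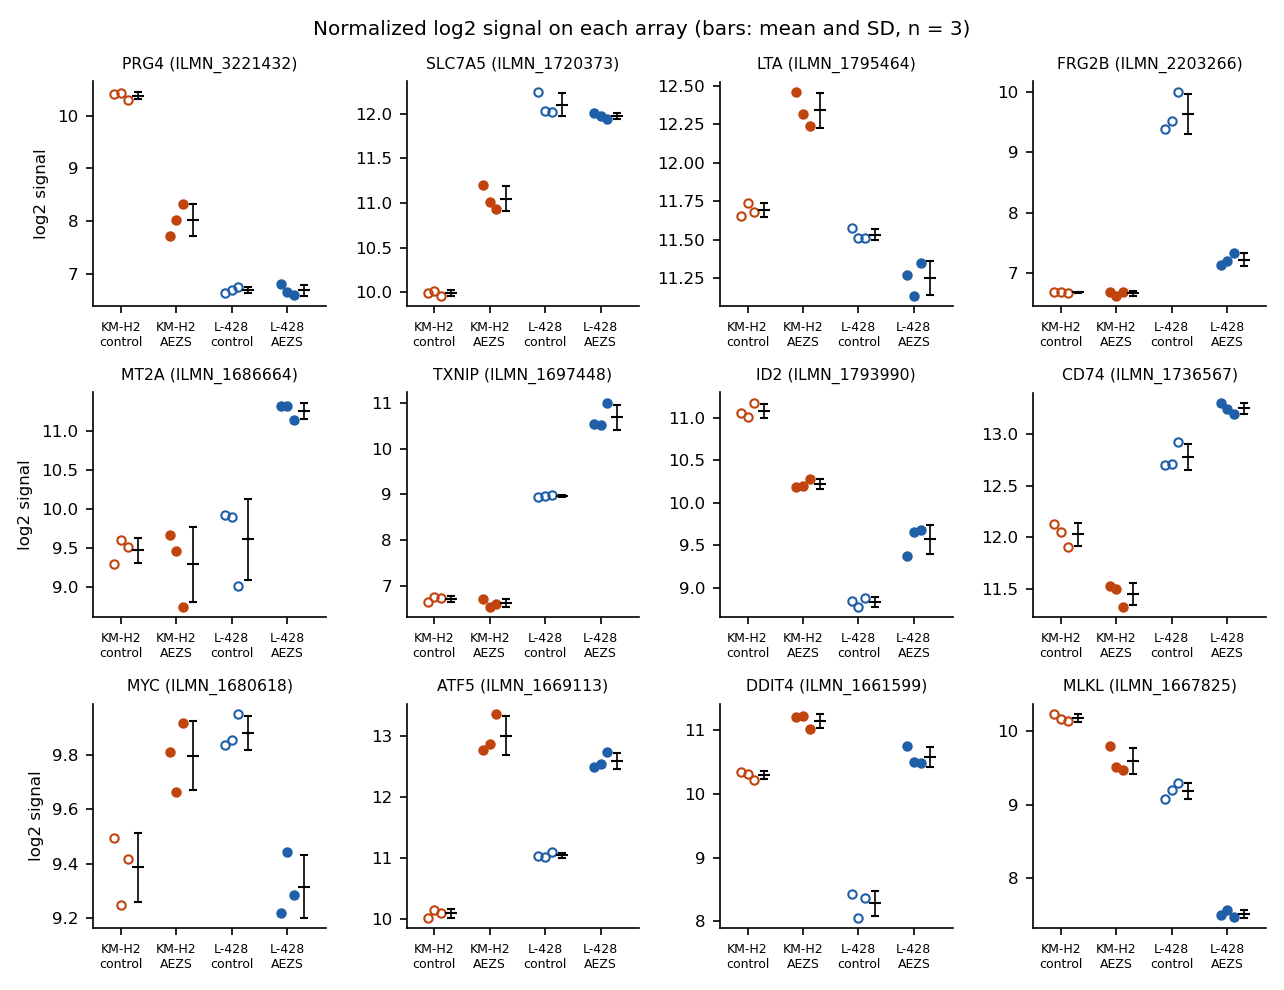
Normalized log2 signal on each of the 12 arrays for 12 named probes (open circles control, filled circles AEZS-136-treated, red KM-H2, blue L-428, bars mean and SD of 3 arrays). The vertical scales differ between panels. PRG4 fell in KM-H2 and FRG2B in L-428 while the other line stayed near background, and ID2 and CD74 fell in KM-H2 and rose in L-428.

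Opposite responses had the widest gap at ID2, an inhibitor of helix-loop-helix transcription factors that opposes the B cell program. ID2 read 11.06, 11.01 and 11.18 on the KM-H2 controls and 10.18, 10.19 and 10.28 on the treated arrays. In L-428 it read 8.84, 8.77 and 8.88 and then 9.38, 9.66 and 9.68. The levels in the lines thus came closer, with a fall by 0.86 (SE 0.09) in KM-H2, a rise of 0.74 (SE 0.09) in L-428 and a difference of -1.60 (SE 0.12, adjusted p = 5e-07). A second ID2 probe moved in opposite directions as well. NUB1, which promotes the breakdown of NEDD8 and related proteins, fell by 0.61 (SE 0.08) in KM-H2 and rose by 0.68 (SE 0.08) in L-428, although another NUB1 probe, detected on 3 arrays, was not called. ILMN_1695590, unnamed, fell by 0.47 (SE 0.07) and rose by 0.89 (SE 0.07). GNE, the key enzyme of sialic acid synthesis, rose by 0.48 (SE 0.09) in KM-H2 and fell by 0.53 (SE 0.09) in L-428.

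MHC class II genes, whose products present antigen to CD4+ T cells, moved apart in the lines. Of 12 genes tested, 8 fell and none rose in KM-H2, 4 rose and none fell in L-428, and the difference was called at 10, all more negative in KM-H2. The median log2 fold change was -0.46 in KM-H2 against 0.30 in L-428, and the median difference was -0.82, from -1.03 to -0.76 over 5 other scalings. Over all members these medians were -0.009, -0.003 and -0.002, and 4.36% had a response called as more negative in KM-H2. CD74, the invariant chain that escorts class II molecules, read 12.12, 12.05 and 11.90 and then 11.53, 11.49 and 11.32 in KM-H2. In L-428 the signal was 12.70, 12.71 and 12.92 and then 13.30, 13.25 and 13.20. The treated arrays lay below all controls in KM-H2 and above all controls in L-428, with a difference of -1.05 (SE 0.12, adjusted p = 4.4e-05). A second CD74 probe was also called in opposite directions, and another gave -0.06 and 1.12.

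HLA-DMA and HLA-DMB, which load peptides on class II molecules, also responded in opposite directions. HLA-DMA fell by 0.44 (SE 0.10) and rose by 0.62 (SE 0.10), and HLA-DMB fell by 0.51 (SE 0.08) and rose by 0.40 (SE 0.08). HLA-DRA, the invariant alpha chain of HLA-DR, fell by 0.48 (SE 0.09) in KM-H2, and its log2 fold change in L-428 was 0.25 (SE 0.09). The probes paired with HLA-DRB3 and HLA-DRB4 fell by 0.90 (SE 0.08) and 0.77 (SE 0.09) in KM-H2. Their log2 fold changes in L-428 were 0.39 (SE 0.08, adjusted p = 0.0019) and 0.30 (SE 0.09, adjusted p = 0.016), just under or below the minimum size. HLA-DRB copies differ between people and are close in sequence, and other probes paired with HLA-DRB4 were not called, so which copy was read is uncertain. CIITA, the master regulator of class II transcription, had log2 fold changes of -0.33 (SE 0.07) and 0.30 (SE 0.07), both under the minimum size, and a difference of -0.63 (SE 0.10, adjusted p = 0.00095). HLA-DOA and HLA-DOB, which modulate peptide loading, were the members at which no difference was called.

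The promoters of the 3 class II pathway genes with opposite responses are shown with a core of the Y box, an inverted CCAAT sequence bound by NF-Y. The windows hold 250 bases before and 50 after the start in RefSeq, build GRCh38.p14, 5′ to 3′ on the strand of the gene, with ATTGG or its reverse complement CCAAT in capitals. Such a match was present in 7 of the 9 windows found for tested class II genes and in 34.6% of 35116 windows of all genes, so it is common. CD74 lies on the minus strand at chr5:150412861-150413160, HLA-DMA on the minus strand at chr6:32953048-32953347 and HLA-DMB on the minus strand at chr6:32940979-32941278.
CD74: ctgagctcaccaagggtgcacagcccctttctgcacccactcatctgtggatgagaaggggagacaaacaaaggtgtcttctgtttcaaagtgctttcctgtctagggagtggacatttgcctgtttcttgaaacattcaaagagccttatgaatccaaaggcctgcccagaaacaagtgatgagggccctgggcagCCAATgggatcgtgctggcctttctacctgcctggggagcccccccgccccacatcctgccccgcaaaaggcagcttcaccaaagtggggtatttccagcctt
HLA-DMA: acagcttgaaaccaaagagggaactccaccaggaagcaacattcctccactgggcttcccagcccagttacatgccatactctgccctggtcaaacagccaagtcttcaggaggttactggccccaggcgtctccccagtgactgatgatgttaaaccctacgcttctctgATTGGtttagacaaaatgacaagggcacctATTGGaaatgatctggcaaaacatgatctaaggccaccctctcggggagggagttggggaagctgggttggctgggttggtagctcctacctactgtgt
HLA-DMB: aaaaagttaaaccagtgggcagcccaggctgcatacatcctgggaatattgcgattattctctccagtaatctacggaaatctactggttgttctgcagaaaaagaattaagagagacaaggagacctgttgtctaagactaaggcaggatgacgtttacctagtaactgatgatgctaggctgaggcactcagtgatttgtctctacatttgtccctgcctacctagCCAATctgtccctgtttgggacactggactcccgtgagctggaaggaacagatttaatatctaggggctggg

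Genes of MHC class I, which present peptides to CD8+ T cells, did not follow class II as a set, although 3 differed in the same direction. Of 16 genes tested, none was called in KM-H2, while 3 rose and 1 fell in L-428, where 7.36% and 7.4% of all members did. The response was more positive in L-428 at 3 (HLA-B, HLA-E and HLA-F) and in KM-H2 at 1, where all members gave 4.36% and 4.78%. The median difference was -0.03 and changed sign over other scalings, from -0.06 to 0.02. HLA-B, HLA-E and HLA-F rose by 0.71 (SE 0.14), 0.94 (SE 0.09) and 0.57 (SE 0.09) in L-428 only, and a second HLA-F probe was not called (adjusted p = 0.067). The log2 fold change of HLA-E in KM-H2 was 0.27 (SE 0.09, adjusted p = 0.044), below the minimum size. Class I genes are similar in sequence, so that a probe may report several of them, and the call of HLA-B was lost under 8 of 23 alternatives. PSMB8, an immunoproteasome subunit, fell by 0.46 (SE 0.08) in L-428, and its other probes disagreed in call.

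Genes of the integrated stress response rose in both lines and, at most of those with a difference, rose more in KM-H2. Of 18 tested, 15 rose in KM-H2 against 13 in L-428, and none fell. The response was more positive in KM-H2 at 9 and in L-428 at 3, where all members gave 4.78% and 4.36%. The median log2 fold change was 1.12 in KM-H2 against 0.87 in L-428, and the median difference was 0.44. ATF5, a transcription factor downstream of ATF4, read 10.01, 10.15 and 10.10 and then 12.78, 12.87 and 13.37 in KM-H2. In L-428 it read 11.04, 11.01 and 11.09 and then 12.50, 12.55 and 12.75. L-428 thus started higher and ended lower, with rises of 2.92 (SE 0.12) and 1.55 (SE 0.12). ATF4 itself rose by 1.99 (SE 0.10) in KM-H2 against 0.82 (SE 0.10) in L-428, and by 1.78 and 0.88 on a second probe, whereas the remaining ATF4 probe gave -0.12 and -0.22.

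The amino acid transporter LAT1 is built from the light chain SLC7A5 and the heavy chain SLC3A2. SLC7A5 read 10.00, 10.01 and 9.96 on the KM-H2 controls and 11.20, 11.01 and 10.93 after AEZS-136, a rise of 1.06 (SE 0.08). The L-428 arrays gave 12.25, 12.04 and 12.02 and then 12.01, 11.98 and 11.95, a log2 fold change of -0.12 (SE 0.08). Treated KM-H2 cells thus remained below the level of untreated L-428 cells. SLC3A2 rose in both lines, by 1.26 (SE 0.10) in KM-H2 against 0.51 (SE 0.10) in L-428. MTHFD2, of mitochondrial folate metabolism, rose by 0.72 (SE 0.09) in KM-H2 only, and ASNS, asparagine synthetase, rose by 1.42 (SE 0.08) and 0.97 (SE 0.08). A second probe of SLC3A2 and one of ASNS rose in both lines without a called difference. CEBPB and CTH rose in both lines, with differences of -0.08 (SE 0.12) and 0.12 (SE 0.11) that were not called.

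The exceptions in the list were DDIT4, SESN2 and ATF3, which rose more in L-428. DDIT4, also called REDD1, an inhibitor of mTORC1, read 10.34, 10.32 and 10.22 and then 11.20, 11.22 and 11.02 in KM-H2. In L-428 it read 8.43, 8.05 and 8.36 and then 10.75, 10.50 and 10.48. The lines started about 2 log2 units apart and ended close together, with rises of 0.85 (SE 0.10) and 2.29 (SE 0.10). SESN2, another inhibitor of mTORC1, rose by 0.44 (SE 0.08) and 0.87 (SE 0.08). ATF3, a stress-induced repressor, rose by 0.88 (SE 0.10) in L-428, and its log2 fold change in KM-H2 was 0.35 (SE 0.10, adjusted p = 0.019), below the minimum size. Outside the list, RHBDD2, a rhomboid-family membrane protein, had the same order, with rises of 0.93 (SE 0.08) and 2.23 (SE 0.08).

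The windows of ASNS and SLC3A2 are shown because both genes rose in both lines and hold the CARE motif, the letters TGATGNAA on either strand, to which ATF4 and C/EBP proteins bind. It was present in 3 of 28 windows of tested list genes, those of ASNS, ATF3 and SLC3A2, and in 3.6% of all windows. The letters were not found in these windows of SLC7A5 and MTHFD2, which says nothing of sites elsewhere in those genes. Capitals mark the match. ASNS lies on the minus strand at chr7:97872359-97872658 and the SLC3A2 window, 1 of 3 for the gene, on the plus strand at chr11:62881449-62881748.
ASNS: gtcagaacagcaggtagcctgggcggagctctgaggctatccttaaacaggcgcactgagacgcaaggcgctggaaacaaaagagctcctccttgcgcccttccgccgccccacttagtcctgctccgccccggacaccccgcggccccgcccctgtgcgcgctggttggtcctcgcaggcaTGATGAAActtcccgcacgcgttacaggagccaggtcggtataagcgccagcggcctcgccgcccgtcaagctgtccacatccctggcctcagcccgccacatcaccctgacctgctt
SLC3A2: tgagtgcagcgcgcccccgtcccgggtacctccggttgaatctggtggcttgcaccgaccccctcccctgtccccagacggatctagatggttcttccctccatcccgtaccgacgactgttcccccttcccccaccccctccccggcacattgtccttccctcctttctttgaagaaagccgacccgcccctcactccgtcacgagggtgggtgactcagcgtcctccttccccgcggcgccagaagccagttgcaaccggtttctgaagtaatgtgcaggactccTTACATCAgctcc

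MYC and genes of ribosome production fell in L-428 and mostly not in KM-H2. Of 20 genes tested, 15 fell in L-428 and none rose, and 1 fell and 1 rose in KM-H2. The response was more positive in KM-H2 at 10 and in L-428 at none, where all members gave 4.78% and 4.36%. Their median log2 fold change was -0.15 in KM-H2 against -0.64 in L-428, with a median difference of 0.53, from 0.47 to 0.70 over other scalings. The fitted difference was above 0 at all 20, against 49.5% of all members. MYC, a transcription factor of growth genes, read 9.50, 9.25 and 9.42 and then 9.81, 9.66 and 9.92 in KM-H2. In L-428 the level was 9.84, 9.85 and 9.95 and then 9.22, 9.44 and 9.29. It rose by 0.41 (SE 0.09) in KM-H2 and fell by 0.56 (SE 0.09) in L-428, so that the order of the lines was exchanged by the treatment. On a second MYC probe the fall in L-428 was called and the log2 fold change in KM-H2 was 0.29.

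ODC1, the first enzyme of polyamine synthesis, read 10.67, 10.76 and 10.95 on the L-428 controls and 10.25, 10.05 and 9.94 after treatment. It fell by 0.71 (SE 0.11) in L-428, and its log2 fold change in KM-H2 was 0.38 (SE 0.11), below the minimum. SRM, spermidine synthase, fell by 1.18 (SE 0.09) in L-428 against -0.17 (SE 0.09) in KM-H2. BOP1, a ribosome assembly factor, fell by 1.04 (SE 0.08) in L-428, from 11.96, 11.89 and 12.12 to 10.92, 10.88 and 11.04, and stayed between 10.77 and 10.96 on the treated KM-H2 arrays. RRS1 and LYAR, of ribosome assembly, and POLR1C, a subunit of RNA polymerases I and III, fell by 1.12 (SE 0.09), 0.91 (SE 0.10) and 0.75 (SE 0.09) in L-428. Their log2 fold changes in KM-H2 were -0.34 (SE 0.09, adjusted p = 0.016), -0.20 (SE 0.10) and -0.08 (SE 0.09), all below the minimum size.

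The ODC1 and SRM windows are shown for the E box bound by MYC, CACGTG, which reads the same on both strands and is in capitals. It was present in 6 of 17 windows of tested list genes and in 7.3% of all windows. In ODC1 the matches begin 29 bases before and 5 bases after the start, and in SRM the match begins 199 bases before it. None of the matches printed for the 3 motifs overlaps a match of another. The ODC1 window, 1 of 2 for the gene, lies on the minus strand at chr2:10447963-10448262 and that of SRM on the minus strand at chr1:11059969-11060268.
ODC1: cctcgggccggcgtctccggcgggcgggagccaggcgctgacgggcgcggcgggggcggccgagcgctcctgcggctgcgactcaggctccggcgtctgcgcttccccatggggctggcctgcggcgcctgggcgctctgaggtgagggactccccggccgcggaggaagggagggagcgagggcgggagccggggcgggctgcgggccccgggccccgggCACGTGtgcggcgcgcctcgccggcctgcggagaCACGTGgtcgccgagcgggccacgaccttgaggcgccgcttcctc
SRM: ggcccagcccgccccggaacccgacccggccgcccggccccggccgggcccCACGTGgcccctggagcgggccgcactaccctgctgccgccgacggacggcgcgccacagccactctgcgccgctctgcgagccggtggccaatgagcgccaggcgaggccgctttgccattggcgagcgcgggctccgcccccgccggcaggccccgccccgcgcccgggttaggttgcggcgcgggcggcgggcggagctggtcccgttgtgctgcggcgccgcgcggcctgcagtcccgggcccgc

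**Figure D4:**
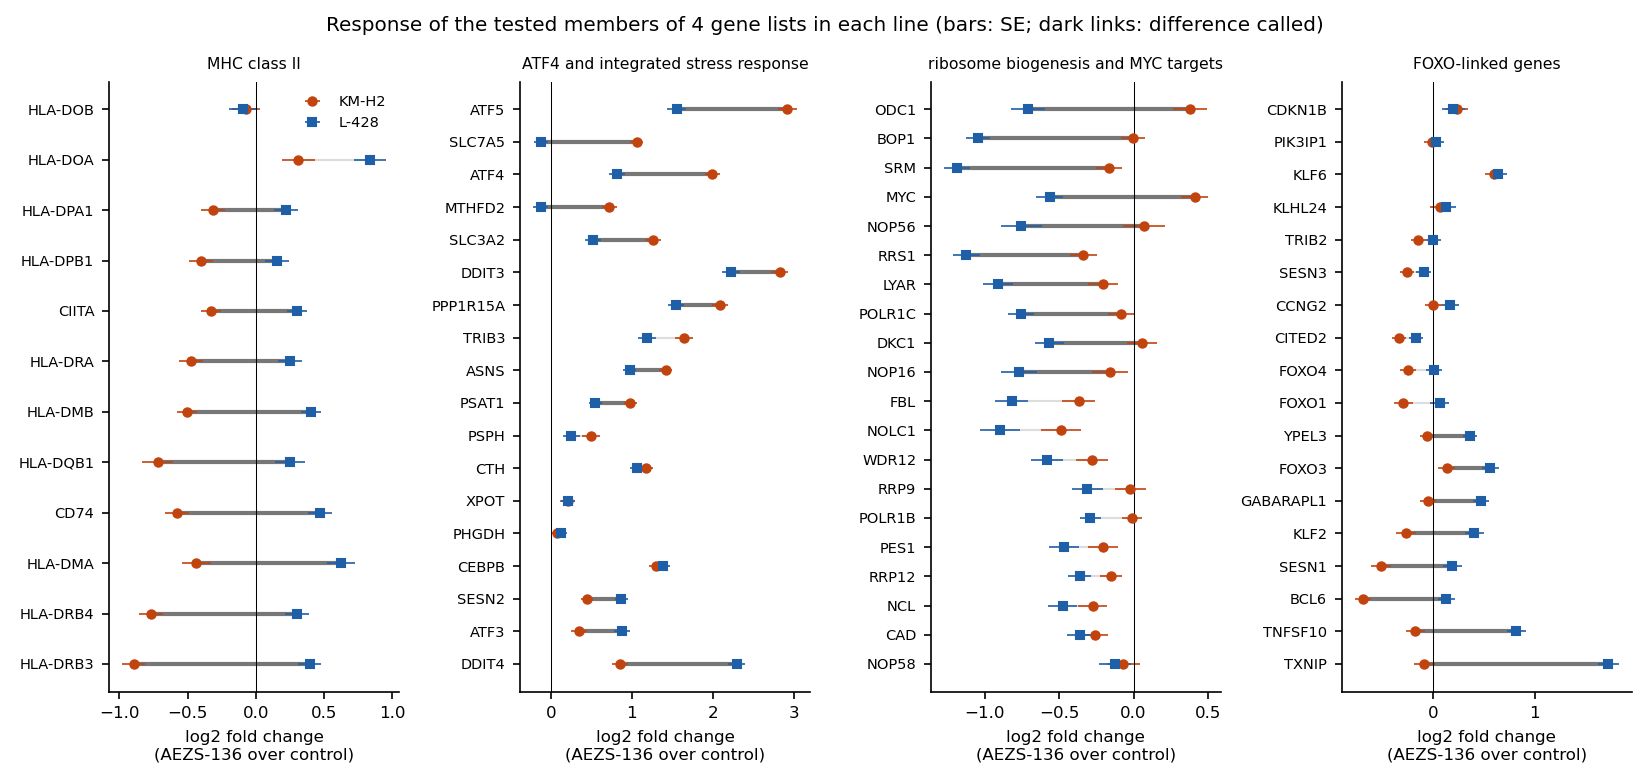
Log2 fold change after AEZS-136 of each tested member of 4 gene lists, in KM-H2 (red circles) and L-428 (blue squares), with SE bars. Dark links join members whose difference was called. In MHC class II the KM-H2 points lie left of 0 and the L-428 points right of it for 10 of 12 genes, and in the ribosome list L-428 lies further left for all 20.

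FOXO-linked genes, which are released when AKT is inhibited, differed at 8 of 18 genes, each with the more positive response in L-428, against 4.36% of all members. Of the 18 tested, 6 rose in L-428 and none fell, while 1 rose and 2 fell in KM-H2. The median difference was -0.31, from -0.58 to -0.28 over other scalings. Beside TXNIP, TNFSF10, the death ligand TRAIL, rose in L-428 only, from 8.21, 8.44 and 8.21 to 8.99, 9.13 and 9.20, or by 0.82 (SE 0.09). FOXO3, the autophagy gene GABARAPL1 and KLF2 rose by 0.56 (SE 0.08), 0.47 (SE 0.08) and 0.41 (SE 0.10) in L-428 only, GABARAPL1 being undetected in KM-H2 and a second FOXO3 probe showing no called difference. BCL6, a repressor of germinal centre B cells, and SESN1 fell by 0.69 (SE 0.08) and 0.51 (SE 0.09) in KM-H2 only. With normexp background correction the difference at SESN1 went from -0.70 to -1.52.

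Immediate early and ERK feedback genes had no common direction. Of 19 tested, the response was more positive in KM-H2 at 5 and in L-428 at 2, where all members gave 4.78% and 4.36%. The median difference of 0.04 changed sign over other scalings, from -0.02 to 0.07. IER3, an immediate early gene, rose by 0.51 (SE 0.09) in KM-H2 against 0.57 (SE 0.09) in L-428. The difference, -0.06 (SE 0.12, adjusted p = 0.81), had a 95% interval of -0.32 to 0.19, so that a difference of the minimum size of 0.4 lay outside it. JUNB, an AP-1 factor typical of HL, read 8.01, 7.76 and 8.08 and then 8.95, 8.91 and 8.86 in L-428, a rise of 0.96 (SE 0.10), and its log2 fold change in KM-H2 was -0.34 (SE 0.10). DUSP2, a phosphatase of ERK, and ETV5, an ERK-induced transcription factor, rose by 0.47 (SE 0.10) and 0.51 (SE 0.08) in KM-H2 only, ETV5 being undetected in L-428. DUSP5, by contrast, fell by 0.48 (SE 0.08) in KM-H2 only. SPRY1 and CCND1 fell by 0.56 (SE 0.09) and 0.41 (SE 0.07) in L-428 only, CCND1 being undetected in KM-H2. With normexp the differences went from 0.71 to 1.18 at DUSP2 and from 0.59 to 1.38 at ETV5.

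Of 25 mitotic genes tested, 4 fell in KM-H2, 1 rose and 2 fell in L-428, and the response was more negative in KM-H2 at 3 (AURKB, CENPF and TOP2A). Of all members, 3.71% fell in KM-H2, 7.36% rose and 7.4% fell in L-428, and 9.14% differed. AURKB, a mitotic kinase, read 10.49, 10.63 and 10.37 on the L-428 controls and 11.18, 11.01 and 10.88 after treatment. It rose by 0.52 (SE 0.11) in L-428 against 0.02 (SE 0.11) in KM-H2, with a difference of -0.50 (SE 0.16, adjusted p = 0.048). That call was lost under 14 of 23 alternatives, with adjusted p from 0.018 to 0.46, and the difference was -0.29 with median scaling and -0.40 without KM-H2 control replicate 3. RRM2, a subunit of ribonucleotide reductase and not a mitotic gene, rose by 0.52 (SE 0.15) in L-428 against 0.10 (SE 0.15) in KM-H2. Its treated L-428 arrays read 10.03, 9.37 and 9.32. The difference at RRM2, -0.43 (SE 0.21, adjusted p = 0.23), was not called. It lay between -0.55 and -0.20 when each array was left out, smallest without treated L-428 replicate 1. CENPF, a kinetochore protein, fell by 0.54 (SE 0.08) in KM-H2, and its log2 fold change in L-428 was 0.28 (SE 0.08). Its difference of -0.82 was called under all 23 alternatives. TOP2A had values of -0.28 (SE 0.11) and 0.26 (SE 0.11), and the call of its difference was lost under 13 of 23 alternatives.

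Among 26 genes of DNA replication and nucleotide synthesis, 10 fell in KM-H2 against 9 in L-428, and 1, RRM2, rose in L-428. Of all members, 3.71% fell in KM-H2, and 7.4% fell and 7.36% rose in L-428. The responses differed at 3, where 9.14% of all members did. TK1, thymidine kinase, and LIG1, DNA ligase I, fell by 0.50 (SE 0.09) and 0.47 (SE 0.10) in KM-H2 only. The calls of their differences were lost under 1 and 2 of 23 alternatives. MCM10 had log2 fold changes of -0.17 and 0.28, and its call was lost under 15 of 23 alternatives, though a second MCM10 probe rose by 0.72 in L-428 only.

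NF-kB targets that differed had the more positive response in KM-H2. Of 18 NF-kB targets tested, 6 rose in KM-H2 against 4 in L-428, and 1 fell in L-428. The response was more positive in KM-H2 at 4 and in L-428 at none, where all members gave 4.78% and 4.36%. LTA, which encodes lymphotoxin alpha, read 11.65, 11.74 and 11.68 and then 12.46, 12.32 and 12.24 in KM-H2. In L-428 it read 11.57, 11.51 and 11.51 and then 11.27, 11.13 and 11.35. Near-equal controls thus separated by about 1 log2 unit, with a rise of 0.65 (SE 0.08) in KM-H2 and a log2 fold change of -0.28 (SE 0.08) in L-428, under the minimum size. TNF and the adhesion molecule ICAM1 rose by 0.75 (SE 0.08) and 0.60 (SE 0.10) in KM-H2 only. EBI3, a cytokine subunit, fell by 0.74 (SE 0.11) in L-428 only.

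Of 10 chemokine, cytokine and receptor genes tested, the response was more positive in KM-H2 at 2 and in L-428 at 2, against 4.78% and 4.36% of all members. CCL20 rose by 0.93 (SE 0.09) in KM-H2 and was not detected in L-428. CXCL10, an interferon-induced chemokine, fell by 0.63 (SE 0.10) in KM-H2 only. CCR7, the lymph node homing receptor, rose by 0.62 (SE 0.09) in L-428, and its log2 fold change in KM-H2 was -0.31 (SE 0.09). IL6 rose by 0.46 (SE 0.09) in KM-H2 only, and the call of its difference was lost under 13 of 23 alternatives.

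Interferon-stimulated genes gave 8 differences more positive in L-428 and 1 more positive in KM-H2 among 24 tested, with a median of -0.25. All members gave 4.36% and 4.78%. In KM-H2, 6 fell and none rose, and in L-428, 4 rose and 1 fell. ISG15, a ubiquitin-like modifier, and IFITM1, a membrane restriction factor, fell by 0.71 (SE 0.15) and 0.84 (SE 0.16) in KM-H2 only. On the treated KM-H2 arrays ISG15 read 9.81, 9.53 and 9.04 and IFITM1 9.18, 9.14 and 8.47, with replicate 3 lowest in both. Without that array the differences were -0.81 and -0.78, and both remained called. Replicate 3 was also the lowest L-428 control, at 10.05 for ISG15 and 8.95 for IFITM1. It deviated together with the treated KM-H2 replicate 3, and low values on both arrays make the difference more negative. A fit without both arrays was not run. IFI6 fell by 0.85 (SE 0.10) in KM-H2 only, while XAF1 rose by 1.0 (SE 0.08) and IRF7 by 0.97 (SE 0.09) in L-428 only. A second probe of IFI6 and a second of XAF1 were not called. Of 4 metallothioneins tested, MT2A and MT1X rose in L-428 only, MT1X by 0.66 (SE 0.17), and the probes of this family are close in sequence. Of all members, 7.36% rose in L-428 and 4.36% had a response called as more positive there. The call of the difference at MT1X was lost under 4 of 23 alternatives. For MT1X, replicate 3 was likewise lowest among the treated KM-H2 arrays, at 8.28, and among the L-428 controls, at 8.18.

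Of 24 genes of glycolysis and hypoxia, the response was more positive in KM-H2 at 4 and in L-428 at 2, and of 21 genes of sterol and fatty acid synthesis at 1 and 1, where all members gave 4.78% and 4.36%. HK2, which commits glucose to glycolysis, read 7.88, 8.08 and 8.13 and then 7.38, 7.28 and 7.24 in L-428, a fall by 0.73 (SE 0.10), but a second HK2 probe was not called. BNIP3 and ANKRD37, hypoxia-inducible genes, fell by 0.52 (SE 0.09) and 0.64 (SE 0.08) in L-428 only. ACACA, acetyl-CoA carboxylase, fell by 0.49 (SE 0.08) in L-428, with a log2 fold change of 0.35 (SE 0.08) in KM-H2, and a second ACACA probe was called in opposite directions. The mitophagy receptor BNIP3L fell by 0.47 (SE 0.09) in KM-H2 and rose by 0.42 (SE 0.09) in L-428, although a second probe, detected on 4 arrays, was not called. SREBF1, which drives lipid synthesis, fell by 0.50 (SE 0.08) in KM-H2 only. A second SREBF1 probe was not called, and the call was lost under 3 of 23 alternatives, while normexp took the difference from -0.46 to -1.04.

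Of 17 genes of cholesterol efflux and the lysosome, the response was more positive in KM-H2 at 1 and in L-428 at 3, against 4.78% and 4.36% of all members. MAP1LC3B, which marks autophagosomes, read 8.16, 8.06 and 8.24 and then 9.65, 9.37 and 8.97 in L-428, a rise of 1.18 (SE 0.12). Its treated arrays lay apart from each other as well as above all controls, and in KM-H2 the log2 fold change was 0.14 (SE 0.12). WIPI1, of autophagosome formation, rose by 0.81 (SE 0.09) in L-428 and was not detected in KM-H2. ABCG1, a cholesterol exporter, fell by 0.60 (SE 0.07), and MYLIP, which degrades the LDL receptor, rose by 0.41 (SE 0.08), each in L-428 only. Among 16 antioxidant genes, 2 differed, both more positive in KM-H2, against 9.14% of all members that differed. FTL, the ferritin light chain, rose by 0.67 (SE 0.09) in KM-H2 only and on 2 probes, and NQO1 had log2 fold changes of 0.18 (SE 0.08) and -0.37 (SE 0.08), with a difference of 0.55 that was 1.14 with normexp.

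Among 16 genes of the BCL2 family and necroptosis, 3 differed, where 9.14% of all members did. MLKL, the executioner of necroptosis, read 10.24, 10.17 and 10.14 and then 9.80, 9.51 and 9.47 in KM-H2. The L-428 arrays gave 9.08, 9.20 and 9.30 and then 7.49, 7.57 and 7.47. It fell in both lines and further in L-428, by 0.59 (SE 0.09) against 1.68 (SE 0.09), with a difference of 1.09 (SE 0.13, adjusted p = 3.8e-05). HRK, a BH3-only death activator, rose by 0.73 (SE 0.12) in KM-H2 and was not detected in L-428, and its call was lost under 7 of 23 alternatives. BAX, a pore-forming death effector, fell by 0.55 (SE 0.12) in KM-H2 only, but its call was lost under 11 of 23 alternatives and a second BAX probe was not called. Replicate 3 was lowest among the treated KM-H2 arrays of BAX, at 8.41, and among its L-428 controls, at 8.63. Among 14 p53 targets, 1 (AEN) was more positive in KM-H2 and 2 (BAX and SESN1) in L-428, against 4.78% and 4.36% of all members. SESN1 was also counted among the FOXO-linked genes. AEN, a nuclease, fell by 0.76 (SE 0.09) in L-428 only, and a second AEN probe was not called.

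The responses of L-540 and SUP-HD1, measured on separate arrays with their own controls, were read at the probes that responded in 1 of the resistant lines. Of the 466 probes that fell in L-428 only, 414 were tested in the sensitive lines, and 216 of these (52.2%) were lower in L-540 and 149 (36.0%) in SUP-HD1. Over 15398 shared members, 12.7% were lower in L-540 and 8.11% in SUP-HD1. Of 324 tested probes that rose in L-428 only, 128 (39.5%) were higher in L-540 and 120 (37.0%) in SUP-HD1, where all shared members gave 12.2% and 8.37%. Of 128 tested probes that rose in KM-H2 only, 47 (36.7%) were higher in L-540 and 21 (16.4%) in SUP-HD1. Of 127 that fell in KM-H2 only, 46 (36.2%) were lower in L-540 and 21 (16.5%) in SUP-HD1. In each of these sets, probes called in the sensitive lines mostly moved as in the responding resistant line, although in all but 1 of these comparisons most tested probes were not called in that direction. Over all 17242 probes tested in the sensitive lines, 11.5% were higher and 11.9% lower in L-540, and 7.8% were higher and 7.52% lower in SUP-HD1.

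**Figure D5:**
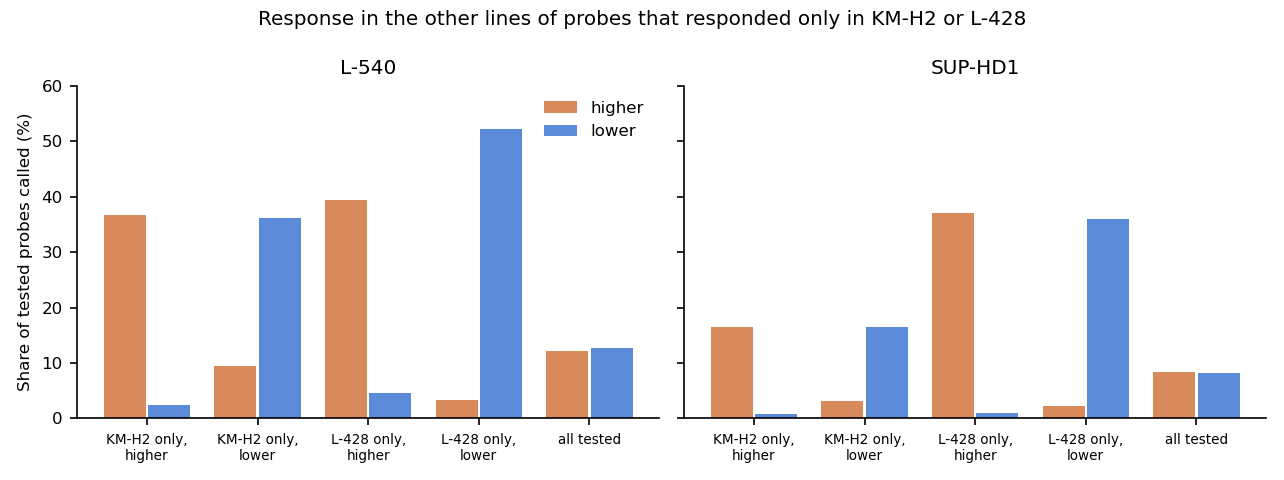
Share of tested probes (%) called higher or lower after AEZS-136 in L-540 (left) and SUP-HD1 (right), for probes that responded in KM-H2 only or L-428 only by direction, and for all shared members. Probes that fell in L-428 only were lower at 52.2% in L-540 and 36.0% in SUP-HD1.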

How the data were processed

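RNA was hybridised to Illumina arrays. Deposited by the authors were signal intensities per probe on a linear scale, not normalized between arrays, with BeadStudio named in the submitters' processing notes (version not stated there). The detection value deposited beside each signal is a fraction between 0 and 1, read here as 1 minus the detection p. The authors also deposited log2 values after their robust spline normalization, which served as an alternative. For the 12 arrays, log2 signals were quantile-normalized in place of robust spline normalization, since lumi was not installed. No background was subtracted, which understates fold changes of dim probes. Probes detected above 0.99 on at least 3 arrays entered 1 limma 3.58.1 model (R 4.3.3) with 4 group means, variances moderated across probes (degrees of freedom: 8 residual, 8.3 prior) and a contrast for the difference of responses. Calls needed an adjusted p under 0.05 and a log2 fold change or difference of at least 0.4 in size, the thresholds of the methods. L-540 and SUP-HD1 were fitted on their own arrays in the same way. The number of arrays limits the precision.

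The members, gene lists and tests were chosen with earlier results of these data known. The named probes were the 3 given markers, the 6 largest differences among non-overlapping probes of each kind of response in 1 line and of opposite responses, the 4 largest of those in both lines, up to 4 called members of each of 18 gene lists, and members a statement turns on. A list gene with several probes was represented by 1 probe. Genes came from GEO's platform annotation, which pairs 30113 probes with 1 symbol, 8 with several and gives none for 17202, and which holds a probe for 410 of 436 list genes. Promoters came from RefSeq. The 23 alternatives were other normalizations (24 arrays together, median scaling, cyclic loess, normexp, the deposited log2 values), no detection filter or one on all arrays of a group, no minimum fold change, the methods' t-test, 2 replicate blocks and leaving out each of the 12 arrays. The code of the fit was tried on simulated data with independent noise for each probe and array. Deviations shared between arrays were not simulated, so the trial does not cover calls that they affect. Tables and figures were made with Python 3.11.15, scipy 1.17.1 and matplotlib 3.10.9.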

Additional observations from a re-analysis of the deposited data

Results flagged for a closer look

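The responses of KM-H2 and L-428 to AEZS-136 differed at 1602 of 17530 probes by a limma test of the difference itself, and 84 named probes were among them. Values below are the log2 fold change in KM-H2 minus that in L-428. Of these 84, 67 kept an adjusted p under 0.05 and a size of at least 0.4 under each of 23 alternatives, and 17 lost the call under at least 1. All 84 were called on these same arrays and most were picked for their size, so the tally does not describe the 1602. The alternative without a minimum fold change keeps every call by construction. Of all 1602 calls, the alternatives shared from 58.2%, with the methods' t-test, to 100%.

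Where only the rise in KM-H2 was called, the differences were 1.50 for LRRC49, 1.37 for YJU2, 1.25 for HBG2, 1.23 for ILMN_3263451, 1.18 for SLC7A5, 1.17 for HBG1, 0.93 for LTA and 0.90 for CCL20. Smaller ones were 0.71 for DUSP2, 0.68 for ICAM1, 0.65 for HRK, 0.60 for TNF, 0.59 for ETV5, 0.53 for FTL and 0.42 for IL6. With only a fall in KM-H2 called, they were -2.36 for PRG4, -2.29 for ILMN_1780349, -1.39 for NUDT1, -1.29 for HLA-DRB3, -1.26 for ILMN_1800220, -1.23 for IGLL1, -1.07 for HLA-DRB4, -1.02 for ISG15, -1.01 for IFITM1 and -0.995 for IFI6. The remainder were -0.82 for BCL6, -0.82 for CENPF, -0.70 for SESN1, -0.66 for CXCL10, -0.61 for BAX, -0.59 for LIG1, -0.56 for TK1 and -0.46 for SREBF1. ILMN_1780349 is paired with TPR, whose other probe did not share the fall.

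Where only the rise in L-428 was called, the differences were -1.84 for MT2A, -1.81 for TXNIP, -1.77 for CMAHP, -1.72 for TSC22D3, -1.55 for ILMN_3294741, -1.55 for CAVIN3, -1.30 for JUNB, -1.06 for XAF1 and -1.03 for MAP1LC3B. Smaller ones were -0.99 for TNFSF10, -0.94 for MT1X, -0.92 for CCR7, -0.72 for HLA-B, -0.67 for HLA-E, -0.59 for WIPI1, -0.59 for MYLIP, -0.58 for HLA-F and -0.50 for AURKB. With only a fall in L-428 called, they were 2.39 for FRG2B, 2.33 for ILMN_1724555, 2.17 for FRG2, 1.87 for ILMN_1702829, 1.86 for CYP4Z1, 1.44 for AMPH, 1.09 for ODC1, 1.04 for BOP1 and 1.02 for SRM. The remainder were 0.84 for ACACA, 0.84 for HK2, 0.74 for ABCG1, 0.73 for PSMB8, 0.73 for AEN, 0.72 for EBI3, 0.65 for BNIP3 and 0.55 for ANKRD37.

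Opposite responses gave -1.60 for ID2, -1.36 for ILMN_1695590, -1.28 for NUB1, -1.06 for HLA-DMA, -1.05 for CD74, -0.89 for BNIP3L, 1.01 for GNE and 0.97 for MYC. Responses of both lines in the same direction differed by -1.44 for DDIT4, -1.30 for RHBDD2, 1.37 for ATF5, 1.18 for ATF4 and 1.09 for MLKL. With neither response called, the differences were -0.55 for TOP2A, -0.46 for MCM10 and 0.55 for NQO1.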

How the results depend on the processing

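The count of probes with different responses was between 1140 and 1863 under the alternatives that kept all 12 arrays, except 933 with the methods' t-test. That test also gave 499 probes responding in L-428 only and 37 in both lines by a different amount. With no minimum fold change there were 175 probes responding in both lines with a different size and 87 probes responding in opposite directions, since smaller changes were counted, and with normexp background correction 64 were opposite, for which the cause was not tested. Leaving out each array in turn gave 1274 to 1650 different responses, 304 to 374 in KM-H2 only, 678 to 895 in L-428 only, 54 to 73 in both lines and 13 to 21 opposite. Median scaling shared 1011 of the 1602 calls (63.1%), 255 of the 351 of KM-H2 only and 506 of the 822 of L-428 only. Deviations of same-numbered arrays correlated between -0.142 and 0.361 over 18 pairs of arrays, 5 of them above 0.1, so the numbers were not taken to pair the samples. The highest value was between the treated KM-H2 replicate 3 and the control L-428 replicate 3, which thus deviated together. With the replicate block within each line, 1568 responses differed, 352 in KM-H2 only, 809 in L-428 only, 72 in both and 16 opposite, and with a block shared by both lines 1696. Over the 84 named probes that were called and the 23 alternatives, 1833 values kept direction and call and 99 kept the direction but lost the call. The alternative without a minimum fold change could lose none of these calls. The difference at IER3, ILMN_1682717, which was not called, was 0.0249 with median scaling against -0.0633. With normexp the differences were over 1.5 times larger at 11 called probes, among them FRG2 (3.27), ILMN_1724555 (3.55), MLKL (1.73), HK2 (1.44), ABCG1 (1.15) and BCL6 (-1.24), and with median scaling smaller by as much at AURKB (-0.29) and MCM10 (-0.27). The calls lost most often were those of MCM10, AURKB, TOP2A, IL6, BAX, HLA-B and HRK. The limits are 3 arrays a group, a median SE of 0.123 for a difference, and dim probes, whose changes are compressed by background: at 114 of the 351 probes of KM-H2 only and 140 of the 822 of L-428 only, the other line gave no detected signal.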
